A study of Mus musculus with 9 samples.

Results

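The genes described here are the NF-kB transcription factor subunits Rela, Relb, Nfkb1 and Nfkb2, and the inhibitors and feedback regulators Nfkbia, Nfkbib, Nfkbie, Nfkbiz, Tnfaip3 and Birc3. They are 10 of the 55291 genes counted in each library, found by symbol. They were chosen by their normalised read counts in culture, bone marrow and lung, so those values are given as a description, without p-values. The samples were mouse cells labelled acute myeloid leukaemia (AML), and all 3 groups share the genotype Trp53(R172H/Δ), in which R172H is a missense allele of the tumour suppressor p53. The groups were cells grown in vitro (culture) and cells recovered from bone marrow or lung of wild-type recipients, with 3 libraries in each. Low-input libraries were made with the SMART-seq v4 and ThruPLEX kits. The sources used here do not give the age and sex of the recipients, the means by which leukaemia cells were isolated from tissue, or whether libraries came from separate mice or cultures. P-values therefore measure only the spread between these libraries, which may be technical.

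NF-kB proteins bind DNA as dimers, and IkB proteins hold the dimers in the cytoplasm of resting cells. Signals from TNF, interleukin-1 or Toll-like receptors activate the IkB kinase (IKK), which marks IkB for destruction and lets the dimers enter the nucleus. Several genes switched on there encode inhibitors of the same pathway, which closes a negative feedback loop. In a slower, non-canonical branch the NFKB2 precursor is processed to p52, the partner of RELB. RNA levels do not report processing, phosphorylation or nuclear entry.

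The choice of genes did not use promoter sequence, but it took genes of the NF-kB pathway, several of which NF-kB itself induces. A share of matches above that of all genes is therefore not an independent result. The table of RefSeq promoters (GRCm38.p6, from 250 bases before to 50 bases after each start site) held 7 of the 10 genes and lacked Relb, Nfkb1 and Nfkbiz. Matches to the kappaB consensus, the sequence bound by NF-kB dimers, were searched on both strands and overlapping matches were merged. The consensus matched in 4 of the 7 genes (57.1%), namely Tnfaip3, Nfkbia, Nfkbie and Nfkb2. The windows of Rela, Nfkbib and Birc3 held no match. Of 10395 tested genes with a window, 1253 (12.1%) held a match, as did 2779 of all 32851 windows (8.46%). Among the other pathway genes listed further on, 22 of 68 tested genes with a window (32.4%) held a match. The matches within 50 bases of a start site, and the only match of Nfkbie, are printed 5′ to 3′ on the gene's strand. The matched bases are alike because the search required it, so their likeness is not a result. Capitals mark the match.
Tnfaip3, chr10:19015403-19015432, minus strand: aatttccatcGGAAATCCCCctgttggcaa
Nfkbia, chr12:55492657-55492686, minus strand: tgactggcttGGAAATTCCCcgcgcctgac
Nfkbie, chr17:45555584-45555613, plus strand: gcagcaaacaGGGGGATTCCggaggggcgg
Nfkb2 match 1, chr19:46304689-46304718, plus strand: gatcgtcacGGGAATTCCCCccctcggggg
Nfkb2 match 2, chr19:46304716-46304745, plus strand: ggggccgaaaGGGGCTTTCCcggctggagc
Nfkb2 match 3, chr19:46305695-46305724, plus strand: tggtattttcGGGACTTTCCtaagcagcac
The printed Tnfaip3 match lay 12 to 3 bases upstream of its start site, and another, not printed, lay 125 to 116 bases upstream. The Nfkbia match lay 29 to 20 bases upstream. The Nfkbie match lay 106 to 97 bases upstream. For Nfkb2 matches 1 and 2 lay 39 to 29 and 11 to 2 bases upstream of the same start site. Match 3 began 10 bases downstream of another start site, and a further match, not printed, lay 236 to 227 bases upstream of that site. A match describes the letters of the reference genome, and binding was not measured.

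Counted reads summed to between 27485111 and 38761363 per library, so that 1 read was worth between 0.0249 and 0.0371 CPM (reads scaled to library size). Trp53 ranged from 293 to 381 CPM over the 9 libraries. Kit and Myb, of the myeloid blast list, were abundant in every group (Kit at mean CPM values of 1170, 633 and 631 in culture, bone marrow and lung), but Cd33 and Cebpa had no reads in culture and Ptprc, the leukocyte antigen CD45, ranged from 1.31 to 17.2 CPM. Transcripts of the erythroid regulators Gata1 (382, 344 and 318 CPM) and Klf1 (306, 301 and 289 CPM) were also abundant, and the AML label is therefore given as the submitters wrote it. Markers of other cells were present in tissue samples: summed neutrophil markers ranged from 325 to 2010 CPM in bone marrow, from 11.4 to 81.9 CPM in lung and from 1.35 to 2.58 CPM in culture. In bulk RNA, fewer cells of a type and less RNA per cell cannot be told apart.

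All 4 subunit genes had their lowest mean in bone marrow. The shift was large for Relb and Nfkb2, the pair of the non-canonical branch, and smaller for Rela and Nfkb1. Relb (chromosome 7, 19606217 to 19629438, GRCm38) encodes the partner of p52. It was at 19.2, 18.2 and 16.5 CPM in culture replicates 1 to 3, at 3.27, 3.13 and 2.81 CPM in bone marrow and at 11.7, 14.5 and 13.3 CPM in lung. No 2 groups overlapped, with bone marrow lowest and culture highest. The log2 change was -2.55 ± 0.14 (SE) from culture to bone marrow, which is 5.85-fold lower, and 2.10 ± 0.14 from bone marrow to lung, which is 4.29-fold higher. Lung remained lower than culture by a log2 change of -0.45 ± 0.13.

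Nfkb2 (chromosome 19, 46304320 to 46312385) encodes the p100 precursor, itself an IkB-like inhibitor until it is processed to p52. It was at 94.6, 94.8 and 88.1 CPM in culture, at 29.2, 25.5 and 25.4 CPM in bone marrow and at 90.0, 107 and 101 CPM in lung. Bone marrow lay below both other groups, which overlapped with each other. Its log2 changes were -1.79 ± 0.09 from culture to bone marrow, 1.89 ± 0.10 from bone marrow to lung and 0.10 ± 0.09 between culture and lung. Exons of Psd on the opposite strand cover 6.52% of the Nfkb2 exon bases. Psd had 358, 230 and 552 reads in all in culture, bone marrow and lung, against 8109, 2826 and 9903 for Nfkb2.

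Rela (chromosome 19, 5637483 to 5648130), which encodes p65, the main activating subunit of the canonical branch, was the most abundant subunit gene. Its levels were 228, 230 and 228 CPM in culture, 167, 145 and 135 CPM in bone marrow and 223, 242 and 236 CPM in lung. Culture and lung overlapped and every bone marrow library lay below them. The log2 change was -0.62 ± 0.08 from culture to bone marrow and 0.65 ± 0.08 from bone marrow to lung. Nfkb1 (chromosome 3, 135584655 to 135691547), which encodes p105 and its product p50, differed least. It was at 59.7, 61.1 and 63.2 CPM in culture, at 48.9, 47.3 and 37.4 CPM in bone marrow and at 52.5, 62.7 and 44.9 CPM in lung. Lung libraries overlapped with both other groups. The log2 change was -0.46 ± 0.13 from culture to bone marrow and 0.26 ± 0.13 from bone marrow to lung.

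**Figure D1:**
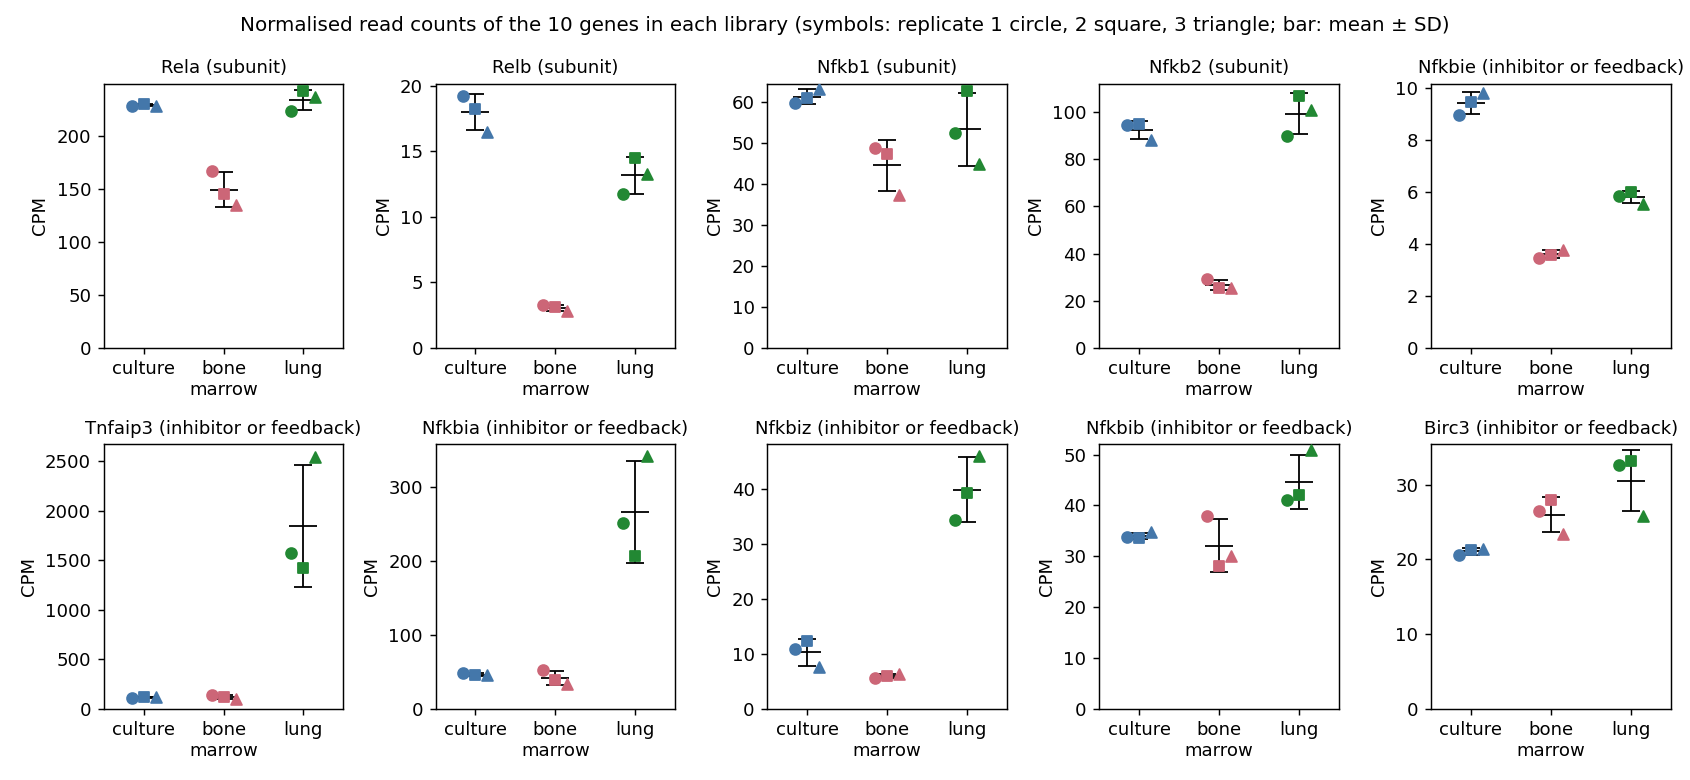
Normalised read counts (CPM, linear axes from 0) of the 10 genes in culture, bone marrow and lung; points are libraries and bars are mean ± SD over 3. The subunit genes dip in bone marrow, whereas Tnfaip3, Nfkbia and Nfkbiz stand high in lung alone, with lung replicate 3 highest for each of these 3.

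Tnfaip3, Nfkbia and Nfkbiz showed another shape, with their highest level in lung. Tnfaip3 (chromosome 10, 19000910 to 19015657) encodes A20, a ubiquitin-editing enzyme that shuts down signalling upstream of IKK. Its culture libraries held 112, 113 and 116 CPM and its bone marrow libraries 133, 119 and 94.6 CPM, overlapping, while its lung libraries held 1570, 1420 and 2550 CPM. Lung replicate 3 was well above the other lung libraries. The log2 change was 4 ± 0.23 from bone marrow to lung, which is 16-fold, and between 3.69 and 4.14 when any single library was left out. From culture to bone marrow it was 0.03 ± 0.21.

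Nfkbia (chromosome 12, 55489410 to 55492647) encodes IkB-alpha, the IkB that is rapidly degraded and resynthesised after stimulation. It was at 48.2, 44.9 and 44.9 CPM in culture, at 52.4, 38.3 and 33.9 CPM in bone marrow and at 251, 206 and 342 CPM in lung. Culture and bone marrow overlapped, and lung lay above both, 6.41-fold higher than bone marrow (log2 change 2.68 ± 0.20) and by a log2 change of 2.53 ± 0.20 above culture. Nfkbiz (chromosome 16, 55811375 to 55838899) encodes the nuclear protein IkB-zeta, which can activate as well as inhibit NF-kB targets. It was at 10.9, 12.2 and 7.56 CPM in culture, at 5.59, 5.91 and 6.36 CPM in bone marrow and at 34.3, 39.1 and 46.0 CPM in lung. Its 3 groups did not overlap. Nfkbiz was 6.67-fold higher in lung than in bone marrow (log2 change 2.74 ± 0.17) and 1.72-fold lower in bone marrow than in culture.

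The other inhibitors and feedback regulators differed by smaller amounts. Nfkbie (chromosome 17, 45555703 to 45563169), which encodes IkB-epsilon, had the order of Relb rather than that of Nfkbia. It was at 8.98, 9.48 and 9.84 CPM in culture, at 3.48, 3.59 and 3.78 CPM in bone marrow and at 5.87, 6 and 5.54 CPM in lung, without overlap. The log2 change was -1.38 ± 0.15 from culture to bone marrow, 0.68 ± 0.15 from bone marrow to lung and -0.70 ± 0.14 from culture to lung.

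Nfkbib (chromosome 7, 28758251 to 28767512), which encodes IkB-beta, an IkB that is not strongly induced by NF-kB itself, was at 33.8, 33.6 and 34.7 CPM in culture and at 38.0, 28.1 and 30.1 CPM in bone marrow. Its lung libraries, at 41.0, 42.0 and 50.8 CPM, lay above both, with log2 changes of 0.48 ± 0.12 over bone marrow and 0.39 ± 0.12 over culture. Sirt2, which overlaps 1.94% of its exon bases on the opposite strand, had 4041, 2204 and 3132 reads in all in culture, bone marrow and lung, against 2980, 3395 and 4461 for Nfkbib. Birc3 (chromosome 9, 7848699 to 7873186) encodes cIAP2, a ubiquitin ligase of the TNF receptor complex that NF-kB induces. It was at 20.6, 21.2 and 21.4 CPM in culture, at 26.5, 28.0 and 23.4 CPM in bone marrow and at 32.7, 33.2 and 25.8 CPM in lung. Both tissues lay above culture and overlapped with each other, with a log2 change of 0.24 ± 0.12 between them.

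**Figure D2:**
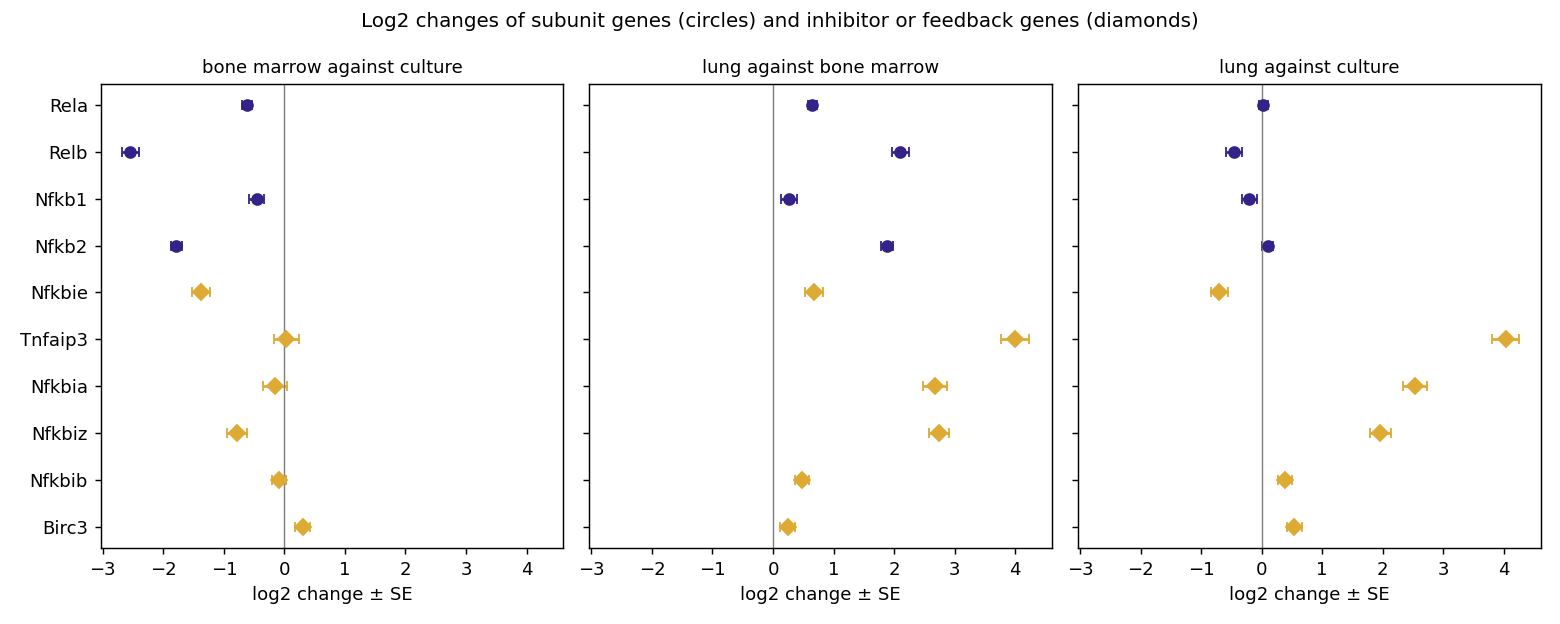
Log2 change ± SE of each gene in the 3 comparisons (x axis, log2 scale; y axis, genes), with circles for subunits and diamonds for inhibitors and feedback regulators. The 4 subunits lie below 0 from culture to bone marrow and near 0 or below from culture to lung, where Tnfaip3, Nfkbia and Nfkbiz reach 4.03, 2.53 and 1.96.

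Set side by side, the classes differed in where they stood apart. From culture to bone marrow the median log2 change was -1.21 over the 4 subunits and -0.12 over the 6 inhibitors, beside 0.05 over all tested genes. From bone marrow to lung it was 1.27 and 1.68, beside -0.01. From culture to lung it was -0.09 and 1.25, beside 0.02. In lung against bone marrow 8 of the 10 genes passed an adjusted p of 0.05 as higher and 0 as lower, where 14.2% of all tested genes passed as higher and 25.3% in either direction. In bone marrow against culture 1 passed as higher and 6 as lower, beside 30.7% and 29.8% of all tested genes (60.5% in all). In lung against culture 5 were higher and 2 lower, beside 27.9% and 27.0% (54.9% in all). The counts of genes whose libraries did not overlap between the groups were the same. Over all tested genes that share was 18.5% higher and 18.1% lower (36.6% in all) in lung against bone marrow. It was 34.3% higher and 32.9% lower (67.2%) in bone marrow against culture, and 34.0% higher and 32.9% lower (66.8%) in lung against culture. Since these contrasts chose the genes, nothing is read from those counts or from the call of any single gene. The shifts that follow describe only how the calls depend on the libraries and the fit. The call of Nfkbib in lung against bone marrow was lost without bone marrow replicate 2 and without lung replicate 3, and Birc3 passed there without lung replicate 3. In bone marrow against culture Birc3 was lost without any 1 of the culture libraries, bone marrow replicate 1 or 2, or lung replicate 2. In lung against culture Nfkbib was lost without culture replicate 1 or 2 or lung replicate 3, Relb was lost without lung replicate 1, and Nfkb1 passed as lower without lung replicate 2. With the replicate number as a block in the 6 tissue libraries, 9 genes passed as higher in lung against bone marrow.

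Nfkb2 counts here as a subunit although p100 is IkB-like, and Nfkbiz as an inhibitor although IkB-zeta can also activate targets. Birc3 is grouped with the inhibitors as a ligase gene that NF-kB induces. Whether cIAP2 inhibits the pathway in these cells was not measured. The mean log2 CPM of the inhibitors minus that of the subunits was computed per library, as a difference of RNA levels and not of activities. It was -1.40, -1.36 and -1.40 in culture, -0.39, -0.40 and -0.33 in bone marrow and 0.22, -0.04 and 0.41 in lung. The 3 groups did not overlap. The step from culture to bone marrow came with subunits that were lower, at 4.62 to 4.89 against 6.08 to 6.14 in culture. The inhibitors were at 4.28 to 4.50 in bone marrow against 4.68 to 4.77 in culture. The step from bone marrow to lung came with both classes higher, at 5.89 to 6.12 for subunits and 6.08 to 6.35 for inhibitors. Without Tnfaip3 the difference was -1.81, -1.77 and -1.83 in culture, -0.90, -0.91 and -0.79 in bone marrow and -0.68, -0.92 and -0.59 in lung. Bone marrow and lung then overlapped, so that their separation rested on Tnfaip3, while culture stayed apart. Of the summed inhibitor CPM, Tnfaip3 made up 81.1% to 84.4% in lung, against 49.2% to 53.5% in bone marrow and 47.8% to 49.4% in culture.

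**Figure D3:**
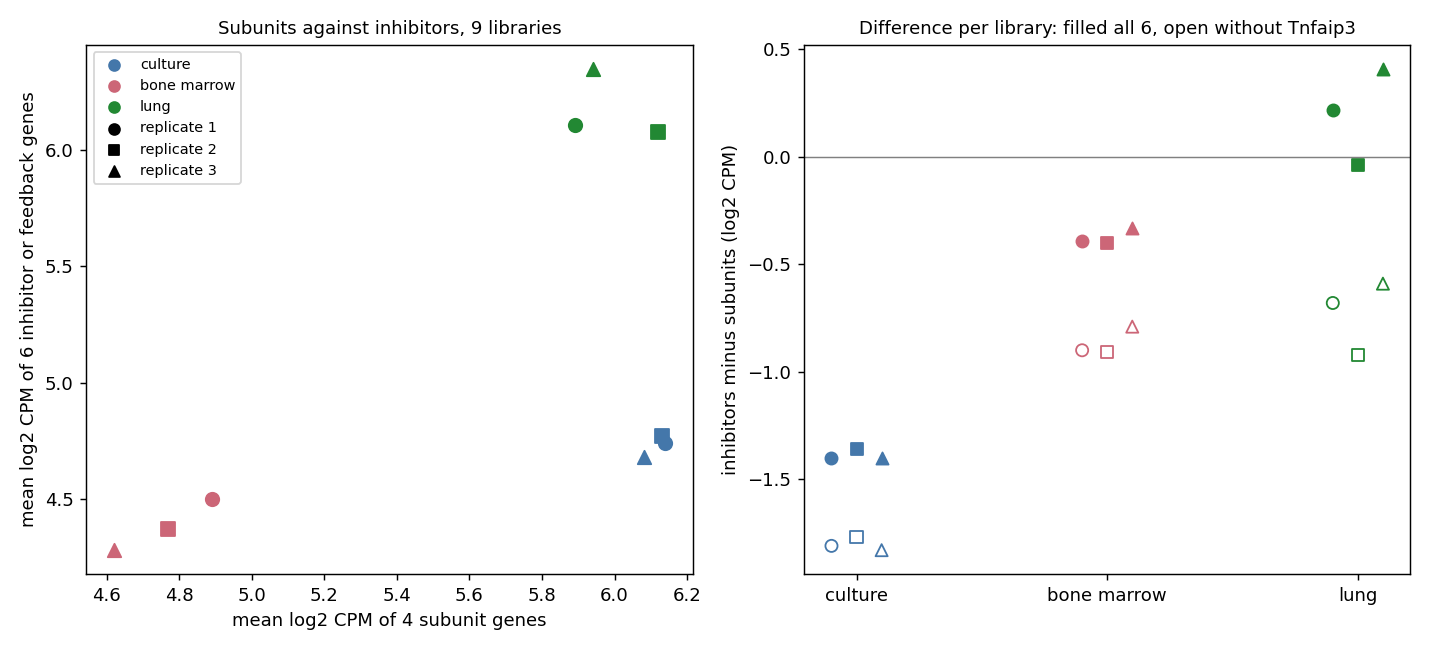
Left, mean log2 CPM of the 4 subunits (x) and of the 6 inhibitors or feedback regulators (y) in each of 9 libraries; right, their difference per library, filled for all 6 inhibitors and open without Tnfaip3. Culture and lung share a high subunit level and differ in the inhibitors, and the open symbols of bone marrow (-0.91 to -0.79) and lung (-0.92 to -0.59) overlap.

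Levels of different genes were compared per kilobase of exon (CPM divided by the exon length in GENCODE M21). In culture the order was Rela (74.4 CPM per kilobase), Nfkbia (28.6), Nfkb2 (20.2), then Nfkbib and Tnfaip3 (15.7 each), whose ranges overlapped. In bone marrow Rela (48.5) and Nfkbia (25.8) kept the first places, and Tnfaip3 (16) and Nfkbib (14.8) overlapped. In lung Tnfaip3 led with a mean of 256 and a range of 197 to 353, overlapping Nfkbia at 165 with a range of 128 to 212. Rela followed at 76.1, then Nfkb2 at 21.7, which overlapped with Nfkbib at 20.6. Relb, at 0.79 CPM per kilobase, was the lowest of the 10 in bone marrow, below Nfkbie and Nfkbiz at 1.19 each.

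**Figure D4:**
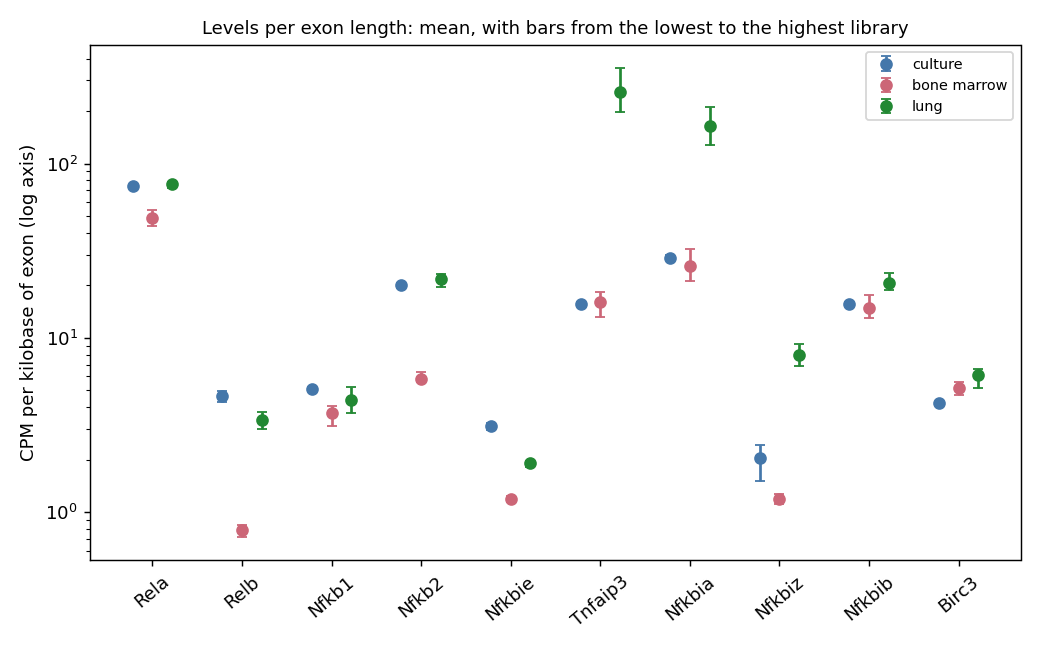
Level per exon length of each gene in culture, bone marrow and lung (CPM per kilobase of exon, log axis); points are means and bars run from the lowest to the highest library. In lung Tnfaip3 (256) and Nfkbia (165) lie above Rela (76.1), which is first in culture and bone marrow.

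Other measures differed along with these genes. Summed CPM of 15 immediate early genes, the first genes to respond when cells are stimulated, ranged from 2240 to 3180 in lung, from 198 to 210 in bone marrow and from 801 to 881 in culture. All 14 tested genes of that list rose in lung against bone marrow, beside 14.2% of all tested genes. In bone marrow against culture 12 fell and 1 rose, beside 29.8% and 30.7% of all tested genes. Lung replicate 3 had the highest sum, as it had the highest Tnfaip3, Nfkbia, Nfkbiz and Nfkbib. Of the lung libraries it had the lowest Birc3, Nfkbie and Nfkb1, while Rela, Relb and Nfkb2 were highest in lung replicate 2. The macrophage marker sum ran from 17.1 to 38.0 CPM over the lung libraries and from 43.2 to 180 CPM over those of bone marrow. Marco was at 0 in bone marrow and culture. Chil3 alone made up most of the bone marrow sum, at 28.7, 69.1 and 157 CPM in replicates 1 to 3. The neutrophil sum rose in the same order (325, 577 and 2010 CPM). Among the 10 tested macrophage markers, 5 fell and 1 rose in lung against bone marrow, beside 11.1% and 14.2% of all tested genes. Alveolar and airway epithelial markers summed to 11.8 to 27.1 CPM in bone marrow and 35.4 to 100 CPM in lung, with Sftpa1 at 0 in bone marrow, and to 29.5 to 31.7 CPM in culture, nearly all of it Hopx. Endothelial markers summed to 121 to 145 CPM in bone marrow, 131 to 161 CPM in lung and 116 to 118 CPM in culture. Most of that sum was Egfl7 (means of 124, 119 and 111 CPM). In lung against bone marrow 7 of 9 tested endothelial markers rose, beside 14.2% of all tested genes. Stromal markers summed to 142 to 213 CPM in bone marrow, 183 to 268 CPM in lung and 239 to 256 CPM in culture, mostly Col1a2 (131, 179 and 217 CPM). Since Hopx, Egfl7 and Col1a2 were also abundant in culture, these 3 sums do not measure host cells alone. In bone marrow and lung T and NK cell markers summed to 1.43 to 4.05 and 4.09 to 5.22 CPM, and B cell markers to 1.16 to 11.4 and 1.79 to 4.48 CPM. The part of these cells and of the immediate early response in the levels of the 10 genes was not tested.

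The genes whose profile over the 9 libraries was nearest to that of Tnfaip3, by root mean square distance of centred log2 CPM among 8521 genes, were Nfkbia (0.66), Jund (0.83), Ier3 (0.87), Nfkbiz (0.87) and Rfx2 (0.88). Jund, which encodes an AP-1 subunit, was at 75.5, 79.7 and 78.9 CPM in culture, at 30, 27.9 and 26.4 CPM in bone marrow and at 315, 309 and 367 CPM in lung. Rfx2, a transcription factor gene, was at 14.8, 12.9 and 14.0 CPM, at 6.75, 7.31 and 12.1 CPM and at 61.5, 65.2 and 54.6 CPM. Unlike Tnfaip3, both were lower in every bone marrow library than in every culture library. Nearest to Nfkb1 were Pgrmc2, Fam168a and Slc25a24 (0.08 each) and Kif7 and Dstyk (0.09 each). No subunit gene was among the 5 genes nearest to Tnfaip3. The distance used the same values that chose the genes, and it kept the size of each change. From bone marrow to lung the largest log2 change of a subunit was 2.10 (Relb), against 4 for Tnfaip3. The absence of subunits is therefore not a separate result.

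The rest of the pathway was followed in 7 lists of 118 genes, 87 of them tested. In lung against bone marrow 29 rose and 1 fell, with a median log2 change of 0.30, where 14.2% of all genes rose and 11.1% fell. In bone marrow against culture 25 rose and 31 fell (median -0.02), near the shares over all genes. In lung against culture 45 rose and 18 fell (median 0.40), where 27.9% of all genes rose and 27.0% fell. The adjusted p-values that follow are from edgeR's quasi-likelihood test over all tested genes.

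Among the remaining family and nuclear IkB genes (Rel, Bcl3, Nfkbid and Nfkbil1), 2 of 4 rose in lung against bone marrow, beside 14.2% of all genes. Nfkbid, which encodes the nuclear IkB protein IkBNS, was at 2.56, 2.94 and 5.89 CPM in bone marrow and 10.2, 9.66 and 14.3 CPM in lung, a rise of 1.57 ± 0.30 on the log2 scale (adjusted p = 0.0033). The other was Rel, the c-Rel subunit gene, named here after its values were seen, at 0.238, 0.186 and 0.671 CPM in bone marrow and 2.25, 1.27 and 2.40 CPM in lung (2.39 ± 0.47, adjusted p = 0.0033). Both sets of lung libraries lay above all bone marrow libraries. In bone marrow against culture Rel was the only gene of this list that passed, as lower (-1.38, adjusted p = 0.025).

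Of 13 genes for the IKK complex and associated kinases, 3 rose in lung against bone marrow, by small amounts, and 0 fell. Over all genes 14.2% rose and 11.1% fell there. Tab2, an adaptor of the kinase TAK1, rose by 0.43 ± 0.11 (adjusted p = 0.012, and 0.052 without bone marrow replicate 3). Ripk1, a kinase of the TNF receptor complex, rose by 0.33 (adjusted p = 0.014, 0.056 without bone marrow replicate 2 and 0.05 without lung replicate 1). Chuk, which encodes the kinase IKK-alpha, passed at 0.23 ± 0.07 (adjusted p = 0.039) but not with the replicate number as a block (adjusted p = 0.051). Of its 18 alternatives 5 kept the call, which was lost without any 1 library other than bone marrow or lung replicate 3.

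Between tissue and culture the IKK subunit genes moved in both directions. Chuk was at 314, 336 and 311 CPM in culture and 160, 161 and 177 CPM in bone marrow (log2 change -0.95 ± 0.07, adjusted p = 1.8e-07). Ikbkg, which encodes the regulatory subunit NEMO, fell by 0.49 ± 0.07 (adjusted p = 6.7e-05), whereas Ikbkb, which encodes IKK-beta, rose by 0.36 ± 0.08 (adjusted p = 0.0011). Tbk1, an IKK-related kinase, was at 66.2, 72.1 and 67.8 CPM in culture and 99.7, 102 and 117 CPM in bone marrow (0.63 ± 0.08, adjusted p = 2.3e-05). In lung against culture the directions were the same, with Chuk at -0.72 (adjusted p = 2.9e-06), Ikbkg at -0.61 (1.3e-05), Ikbkb at 0.44 (0.00029) and Tbk1 at 0.83 (2.7e-06). These comparisons share the culture libraries.

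Of 12 tested ubiquitin ligases, adaptors and TRAFs, 6 rose and 0 fell in lung against bone marrow, beside 14.2% and 11.1% of all genes. Traf1, an NF-kB-induced adaptor, was at 12, 13.1 and 11.2 CPM in bone marrow and 19.2, 20.7 and 26.5 CPM in lung (0.87 ± 0.14, adjusted p = 0.00072). Traf5 rose by 0.89 ± 0.15 (adjusted p = 0.0014) and Peli1, an E3 ligase of the interleukin-1 and Toll-like receptor pathways, by 0.51 ± 0.12 (adjusted p = 0.0089). Traf3, which restrains the non-canonical branch by targeting the kinase NIK, was chosen after its values were seen because Relb and Nfkb2 belong to that branch. It was at 7.05, 6.49 and 6.57 CPM in culture, at 0.863, 0.495 and 1.49 CPM in bone marrow and at 3.43, 5.32 and 2.97 CPM in lung. The 3 groups stood in the order seen for Relb, with a log2 change of -2.79 ± 0.33 from culture to bone marrow (adjusted p = 1e-05) and 2.01 ± 0.33 from bone marrow to lung (adjusted p = 0.0012). Sharpin and Rbck1, subunits of the linear ubiquitin ligase, rose in bone marrow against culture by 0.54 (adjusted p = 9.4e-05) and 0.41 (0.00082). Birc2, the cIAP1 gene of the same family as Birc3, fell in lung against culture by 0.63 (adjusted p = 0.00023).

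Of 13 tested negative regulators outside the 6 inhibitors, 2 rose and 0 fell in lung against bone marrow, where 14.2% of all genes rose and 11.1% fell. In bone marrow against culture 2 rose and 5 fell, beside 30.7% and 29.8% of all genes, and in lung against culture 4 rose and 4 fell, beside 27.9% and 27.0%. The shares that rose in lung, against bone marrow and against culture, were near those over all genes. Cyld, a deubiquitinase that trims the chains A20 also acts on, was at 116, 124 and 131 CPM in culture, at 69.5, 56.4 and 66.6 CPM in bone marrow and at 76.7, 77.3 and 69.6 CPM in lung. Every tissue library lay below every culture library, with log2 changes of -0.95 ± 0.09 (adjusted p = 1.6e-06) in bone marrow and -0.73 (2.1e-05) in lung. Otud7b, the Cezanne deubiquitinase gene, fell in bone marrow by 1.23 ± 0.14 (adjusted p = 6e-06), and Tax1bp1, an adaptor of A20, by 0.71 (1.2e-05). In lung against bone marrow Otud7b passed at 0.46 (adjusted p = 0.027), a call lost in a fit of the 6 tissue libraries and without bone marrow replicate 2 or 3, lung replicate 1 or 2, or culture replicate 1 or 2. The other gene that rose was Zc3h12a, which encodes the RNase Regnase-1, named after its values were seen, at 1.25, 1.52 and 1.22 CPM in bone marrow and 5.47, 5.45 and 3.99 CPM in lung (1.90 ± 0.24, adjusted p = 0.00015).

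Of 22 tested receptors and proximal adaptors, 3 rose and 0 fell in lung against bone marrow, a share of rises near the 14.2% over all genes. Tnfrsf12a, the receptor of the cytokine TWEAK, was at 3.27, 3.56 and 2.46 CPM in bone marrow and 10.6, 10.6 and 13.1 CPM in lung (1.89 ± 0.17, adjusted p = 9.4e-06). Between culture and bone marrow 10 rose and 5 fell, beside 30.7% and 29.8% of all genes. Of those that rose, Myd88, Irak4 and Tirap reached 10 CPM. Tnfrsf1b, Tlr2 and Tlr13, named after their values were seen, were near 0 in culture. They held 3.41, 1.24 and 2.56 CPM in bone marrow replicate 3, but 0.124 to 0.588 CPM in the other bone marrow libraries. That replicate also had the highest neutrophil sum (2010 CPM). In lung, where neutrophil sums were 81.9, 11.4 and 11.7 CPM, Tnfrsf1b was at 6.29, 3.13 and 4.52 CPM. Tlr2 was there at 1.39, 0.294 and 0.791 CPM and Tlr13 at 1.55, 1.01 and 1.11 CPM. The part of host cells was not tested. Myd88, the adaptor of Toll-like and interleukin-1 receptors, was at 43.7, 45.5 and 45.5 CPM in culture, at 84.3, 79.8 and 75.2 CPM in bone marrow and at 92.2, 81.6 and 91.8 CPM in lung. It rose in both tissues, by 0.83 ± 0.08 (adjusted p = 2.1e-06) and 0.98 (6.7e-07). Ticam1, the TRIF adaptor gene of Toll-like receptors 3 and 4, fell by 1.19 in bone marrow (adjusted p = 9e-06) and by 0.86 in lung (0.00018), and the kinase gene Irak2 by 1.36 ± 0.19 (3.5e-05) and 1.49 (2.2e-05).

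Of 12 ligand genes only 4 had enough reads to be tested, none above 10 CPM. Il1b, the most abundant, was at 2.14, 2.88 and 2.76 CPM in bone marrow and 5.81, 4.60 and 6.52 CPM in lung (1.12 ± 0.20, adjusted p = 0.0019), and overlapped between lung and culture. Tnf, named after its values were seen, was at 0.297, 0.341 and 0.249 CPM in bone marrow and 1.23, 1.70 and 2.25 CPM in lung (2.53 ± 0.37, adjusted p = 0.00045). Both are also made by macrophages and other host cells, whose part was not tested.

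Of 19 tested target genes 11 rose in lung against bone marrow, beside 14.2% of all genes, with a median log2 change of 1.32. The largest change of the list was that of Cxcl2, a neutrophil chemokine gene, at 0.0892, 0.186 and 0.224 CPM in bone marrow and 10.1, 17.6 and 14.9 CPM in lung (6.36 ± 0.34, adjusted p = 3e-08). Ier3, an early response gene, was at 37.0, 31.4 and 29.3 CPM in culture, at 22.0, 28.2 and 15.9 CPM in bone marrow and at 122, 127 and 136 CPM in lung (2.54 ± 0.17 over bone marrow, adjusted p = 2.5e-06). Cd69, a membrane protein gene of activated leukocytes, was at 0.357, 0.557 and 0.572 CPM in bone marrow and 29.4, 14.1 and 18.4 CPM in lung (5.36 ± 0.30, adjusted p = 1e-07). Irf1, an interferon-linked transcription factor gene, rose in lung against culture by 2.02 (adjusted p = 2.4e-05). The only target that fell in lung against bone marrow was Vcam1, named after its values were seen and also a macrophage marker here, at 3.30, 5.39 and 5.49 CPM in bone marrow and 0.864, 0.620 and 0.380 CPM in lung (-2.91 on the log2 scale, adjusted p = 0.00056).

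Target genes did not all stand high in lung. Tnfaip2, the most abundant of those named by the rule, was at 683, 703 and 710 CPM in culture, at 531, 416 and 459 CPM in bone marrow and at 471, 415 and 463 CPM in lung. Both tissues lay below culture (-0.58 ± 0.09, adjusted p = 0.00011 and -0.64, 6.1e-05) and overlapped with each other. Bcl2l1, which encodes the survival protein Bcl-xL, fell in bone marrow against culture by 0.75 (adjusted p = 1e-04). Relt, a TNF receptor family gene, rose in bone marrow from 19.3, 19.0 and 20.2 CPM to 42.9, 43.4 and 39.5 CPM (1.10 ± 0.10, adjusted p = 5.1e-07). Unlike Tnfaip2, Relt was highest in lung, at 51.1, 58.4 and 50 CPM (0.34 over bone marrow, adjusted p = 0.018).

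**Figure D5:**
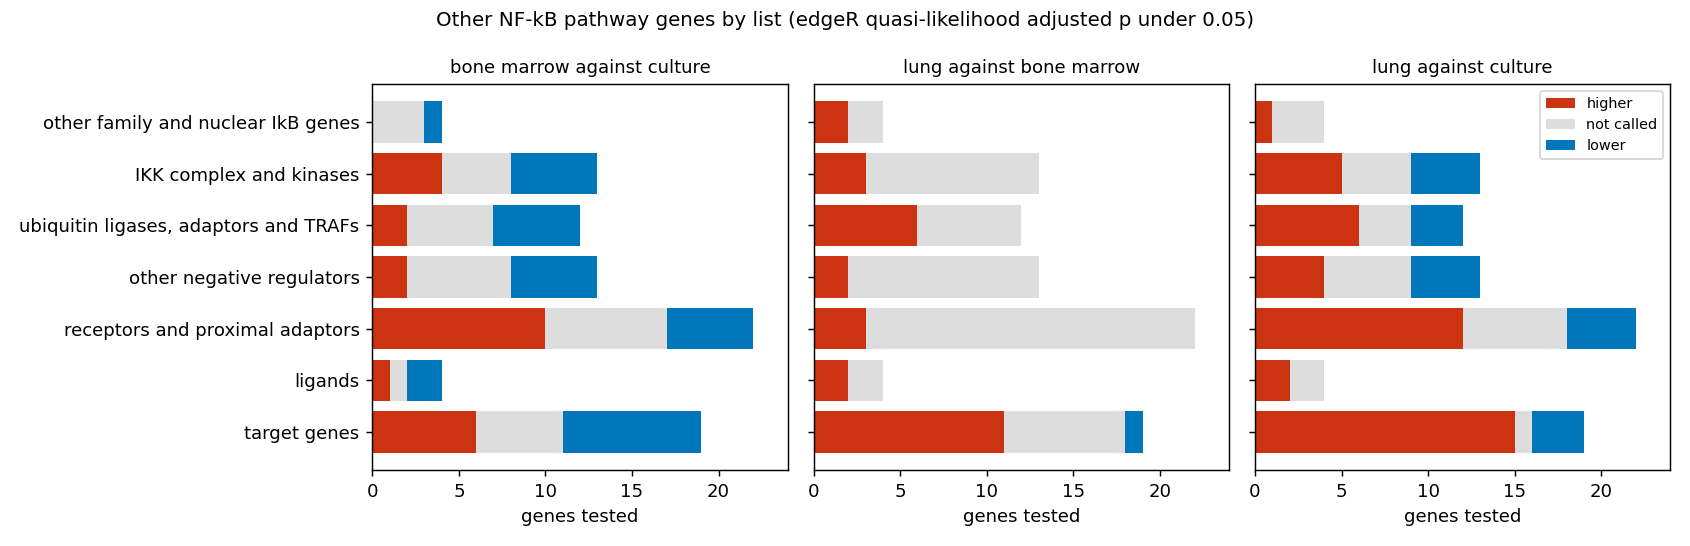
Number of tested genes (x axis) of each pathway list (y axis) that were called higher, called lower or not called at an adjusted p under 0.05, in 3 comparisons. In lung against bone marrow 29 of 87 are higher and 1 lower, with 11 of the 29 among target genes; in bone marrow against culture both directions are present (25 and 31).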

How the data were processed

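The authors deposited raw read counts per gene symbol for each of the 9 libraries; the submitters' processing notes name bcl2fastq, STAR and mm10. For the counting tool, annotation and strand setting, each is not given in the sources used here. From these counts, 30802 genes with a read in any library were filtered with filterByExpr, leaving 15066. TMM scaling gave factors of 0.9658 to 1.039, and CPM are on the scaled library sizes. One edgeR 4.0.16 quasi-likelihood fit (R 4.3.3, robust dispersion) on all 9 libraries gave the log2 changes, SEs and p-values, adjusted by Benjamini-Hochberg over all tested genes with a threshold of 0.05. The 3 comparisons share libraries: culture serves both tissue comparisons, and each tissue serves 2.

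The 10 genes, the pathway and marker lists, and the naming rule were chosen with earlier results of these data known. From each list and comparison the rule took up to 3 of the largest changes per direction among called genes without overlap that reach 10 CPM, or the most abundant gene where none did. It also took the 5 nearest profiles to Tnfaip3 and Nfkb1 among genes of at least 10 CPM. Coordinates and exon lengths come from GENCODE M21 (GRCm38).

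No label says that a replicate number marks a shared mouse or day. Deviations from group means over all tested genes correlated at 0.12, 0.36 and 0.13 between same-numbered bone marrow and lung libraries (different numbers, -0.29 to 0.11), and at -0.07 to 0 between culture and same-numbered tissue libraries. The value of 0.11, between bone marrow replicate 3 and lung replicate 1, was near 0.12 and 0.13. Whether the numbers pair bone marrow with lung was not tested, and a replicate block was fitted as an alternative. Other alternatives were DESeq2 1.42.0, scaling by RLE, by upper quartile or by library size alone, dropping the low-count filter or tightening it to 1 CPM in 6 libraries, fitting only the 6 libraries compared, and leaving out each library. The fit was tested on simulated data, 1 set for each comparison. In each set 66 or 67 genes per fold size, of at least 1 CPM on average, were changed in 1 group. No other gene differed between groups. The fit recovered 50.7% to 52.2% of 1.5-fold, 80.6% to 82.1% of 2-fold and 93.9% to 98.5% of 4-fold changes. False calls numbered 11 to 17 in these sets. In the data 25.3% to 60.5% of tested genes were called, so the shares recovered there may differ. A gene that was not called may therefore still differ by a small amount. Within each group all pairs of libraries differed by more than sampling noise (chi-square over degrees of freedom of at least 4.03).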

Additional observations from a re-analysis of the deposited data

How the results depend on the processing

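No log2 change of the 10 genes or the named pathway genes changed sign where it was called. For the 10 genes 514 of 520 values under alternatives moved by less than their spread, and 1114 of 1184 values of named pathway genes kept their side of the threshold, with 66 calls lost and 4 gained. In lung against bone marrow the genes called numbered 3806, and 2381 in a fit of the 6 libraries, and 2414 to 4760 with a library left out (2473 without bone marrow replicate 2 and 2414 without lung replicate 2). The pathway genes that fell there numbered 1, and 2 with upper-quartile scaling, 4 with no low-count filter and 1 to 3 with a library left out. In bone marrow against culture 25 pathway genes rose, against 14 with the stricter filter and 15 in a fit of the 6 libraries, and the inhibitor median minus the subunit median was 1.09, with a range of 1 to 1.13 with a library left out. In lung against culture 45 rose, against 27 with the stricter filter, which tests fewer genes. The cause of the other shifts was not tested. With the replicate block the genes called in lung against bone marrow were 4133, and in the 6 tissue libraries alone, an alternative chosen after seeing the data, they were 4553 and 2 pathway genes fell there. The block ended the calls of Chuk in lung against bone marrow and of Tirap in bone marrow against culture (adjusted p = 0.051 and 0.054) and no other call of the 10 genes or named pathway genes. Upper-quartile scaling moved the median change of all genes in bone marrow against culture from 0.05 to 0.12, and gave 1796 higher and 2088 lower calls in lung against bone marrow, against 2138 and 1668. Ligands, Rel, Traf3, Icam1 and other genes of a few CPM rest on few reads, which limits their precision.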
